A study of Mus musculus with 4 samples.

Results

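Bone morphogenetic proteins (BMPs) and the secreted proteins that hold them back were followed through Tbx1 lineage cells of the mouse embryo. The 9 genes are the 4 ligands Bmp2, Bmp4, Bmp5 and Bmp7 and the 5 antagonists or modulators Grem1, Nog, Chrd, Fst and Bmper. They were taken from a fixed list, chosen with earlier results of these data known, and matched by Ensembl identifier. Each of the 9 was found among the 27514 genes that the 4 gene tables share.

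The 4 single-cell RNA-seq libraries hold sorted GFP-positive, live cells of Swiss Webster embryos, with 1 library for each genotype at embryonic day (E) 8.5 and 9.5. Control (Ctrl) embryos were Tbx1Cre/+;Rosa26-GFPflox/+ and conditional mutant (cKO) embryos were Tbx1Cre/flox;Rosa26-GFPflox/+. Because Cre sits in the Tbx1 locus and replaces 1 copy of it, the Ctrl embryos carry a single working Tbx1 copy, and the cKO embryos lose the other copy only in cells in which Cre has acted. The reporter likewise marks only cells that have made Cre, so neighbouring tissue outside the Tbx1 lineage is not in the libraries. Tissue was the upper part of the body at E8.5 and the pharyngeal apparatus with the heart at E9.5, from pooled embryos, and the study's sample list adds the back at E9.5. That list gives somite counts that reach higher in cKO than in Ctrl embryos at both stages. With 1 library per group there is no replicate and no significance test. The intervals given are 95% intervals for counting error alone, and genotype cannot be told apart from anything else that differed between 2 libraries.

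BMPs are secreted dimers that bring type I and type II receptor kinases together, after which SMAD1, SMAD5 and SMAD9 are phosphorylated and enter the nucleus with SMAD4 to regulate targets such as the Id genes. Bmp2 and Bmp4 are close relatives, and Bmp5 and Bmp7 belong to another branch of the family. Gremlin 1 (Grem1), noggin (Nog) and chordin (Chrd) bind BMPs outside the cell and keep them from their receptors, follistatin (Fst) binds activins most tightly and some BMPs as well, and Bmper can dampen or enhance BMP signalling. In the pharyngeal region and the heart, BMP signalling is known for its roles in the differentiation of second heart field progenitors into heart muscle.

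The promoter sequences of a ligand and an antagonist whose levels in mesodermal progenitors are described here are shown for the bases just upstream of their start sites, from RefSeq on GRCm38.p6. Both read 5′ to 3′ on the minus strand, the strand of the genes. The window of Bmp4 is chr14:46390670-46390919 and that of Grem1 is chr2:113758649-113758898. Capitals mark GGGCGG (the GC box) and GGCGCC (a GC-rich SMAD-type site).
Bmp4: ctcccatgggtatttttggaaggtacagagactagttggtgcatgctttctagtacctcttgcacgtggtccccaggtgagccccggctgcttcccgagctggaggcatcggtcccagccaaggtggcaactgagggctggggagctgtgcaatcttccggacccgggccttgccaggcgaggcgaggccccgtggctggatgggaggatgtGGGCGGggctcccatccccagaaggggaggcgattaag
Grem1: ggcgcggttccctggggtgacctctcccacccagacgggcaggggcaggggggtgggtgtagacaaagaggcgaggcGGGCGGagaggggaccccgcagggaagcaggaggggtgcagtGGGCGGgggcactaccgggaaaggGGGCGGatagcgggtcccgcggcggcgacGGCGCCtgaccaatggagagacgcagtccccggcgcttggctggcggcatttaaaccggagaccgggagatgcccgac
Upstream windows of 250 bases were at hand for 5 of the 9 genes, namely Bmp4, Bmp5, Grem1, Chrd and Bmper. That of Chrd (chr16:20732877-20733126) lies inside the gene span given below, so it is not upstream of that span. Searched on both strands, GGGCGG was in the windows of Bmp4, Grem1, Chrd and Bmper, against 32.7% of 32851 windows, and GGCGCC was in those of Grem1 and Chrd, against 9.59%. The CCAAT box was in that of Grem1 (33.8% of windows), and the T-box motif AGGTGTGA was in none of the 5 (1.12%). GGGCGG and GGCGCC do not contain each other, and a match describes letters only.

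On GRCm38.p6, Bmp2 spans 133552159 to 133562896 of chromosome 2, which also carries Bmp7 (172868012 to 172940321) and Grem1 (113748675 to 113758648). Bmp5 (75775365 to 75900316) and Bmper (23223076 to 23485215) are on chromosome 9, Bmp4 (46383525 to 46390669) is on chromosome 14, and Nog (89300638 to 89302559) is on chromosome 11. Chrd lies on chromosome 16 (20731425 to 20742384) and Fst on chromosome 13 (114452262 to 114458989). The annotation places the long noncoding genes Gm15217 and Gm15222 over Bmp4, Gm40010 over Bmp7 and Gm41074 over Fst, the protein-coding gene Thpo over Chrd and the small nucleolar RNA gene LOC115487292 over Bmper, and whether reads were counted by strand is not given in the sources used here.

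The libraries held 1434 (Ctrl E8.5), 1090 (cKO E8.5), 5453 (Ctrl E9.5) and 6266 (cKO E9.5) cells. UMIs (unique molecular identifiers) each stand for 1 captured transcript end. Their median per cell was 17319.5 (Ctrl) and 23984 (cKO) at E8.5 and 16666 (Ctrl) and 15910.5 (cKO) at E9.5. At E8.5 the cKO library was thus the deeper one. Between 2 and 55 cell barcodes were shared by pairs of libraries. The cKO E9.5 library was counted on another, longer gene table, and this cannot be told apart from genotype. Of the shared genes, 5 had at least 100 UMIs in cKO E9.5 and 0 in the other 3 libraries, and 6 had 0 in cKO E9.5 and at least 100 in Ctrl E9.5. None of the 9 genes was among them. Levels are UMIs per 1000000 UMIs of the shared genes (UPM). Tbx1 itself was at 86.4 UPM (Ctrl) and 118 (cKO) at E8.5 and at 103 (Ctrl) and 134 (cKO) at E9.5, so it was not lower in either library labelled cKO. These 3′ end counts may lie outside the deleted part of Tbx1 and do not check the deletion, and "cKO" below means the library labelled cKO.

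Cells were placed in groups by gates, each asking for 3 to 5 genes of a marker list, and the group names stand for these gates. MLP-like cells (multilineage progenitors of the pharyngeal mesoderm, required to carry Arg1), cells like branchiomeric muscle progenitors, like the anterior second heart field or the somatic mesoderm, like the posterior second heart field and like cardiomyocytes are called MLP, BrM, aSHF/SoM, pSHF and CM. Other groups carry the name of a leading gene, as in Foxd1 mesenchyme, or of a tissue. The share of cells that stayed ungated was 36.1% (Ctrl) and 23.3% (cKO) at E8.5 and 13.2% (Ctrl) and 25.5% (cKO) at E9.5. The gates count detected marker genes, which depends on depth, and the part of depth in these shares was not tested. Each group's own markers were found, with at most 2 of a list at 0, and the BrM group at E8.5 was the one with 2 missing. The paper reports some gate markers as reduced in its mutant cells, such as Aplnr in MLP and Lhx2 and Myf5 in BrM. A gate may therefore hold unlike cells in Ctrl and cKO, which was not tested.

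In the Ctrl E9.5 library, the ligands were highest in cardiomyocytes and second heart field cells, Fst in Zic1 and Foxd1 cells, and Grem1 in MLP. Bmp4 was at 347 UPM in pSHF, 237 in CM, 188 in aSHF/SoM and 81.8 in MLP, each interval clear of the next, followed by Zic1 mesoderm (47.2), epithelial cells (43.3) and Foxf2/Foxl1 mesenchyme (42.4), whose intervals overlapped. Bmp2 was at 44.8 UPM in CM and at 8.82 in the next group, aSHF/SoM. Bmp7 was at 72.9 in CM and 62.7 in pSHF, with overlapping intervals, then between 31.5 and 39.9 in aSHF/SoM, epithelial, MLP and BrM cells, and at most 11.8 in the other groups. Bmp5 was low, from 14.4 to 17.9 UPM in pSHF, aSHF/SoM and CM with overlapping intervals.

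Fst and Grem1 had another order. Fst was at 370 UPM in Zic1 mesoderm, 300.3 in Foxd1 mesenchyme, 199 in Crym mesenchyme, 138 in Foxf2/Foxl1 mesenchyme and 86.1 in neural tube cells, each clear of the next, and at 32.4 in BrM and 29.6 in MLP, which did not differ beyond their intervals. Grem1 was at 33.9 UPM in MLP, 20.5 in BrM and 10.3 in Crym mesenchyme and at 3.00 or less in the other groups. Nog stayed between 3.44 and 8.53 UPM in its 7 highest groups, neuroblasts first, with overlapping intervals. Bmper was highest in CM, at 4.68 UPM from 12 UMIs. Chrd did not pass 2.84 UPM in any group. The heat map of levels shows these patterns in the 4 libraries.

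**Figure D1:**
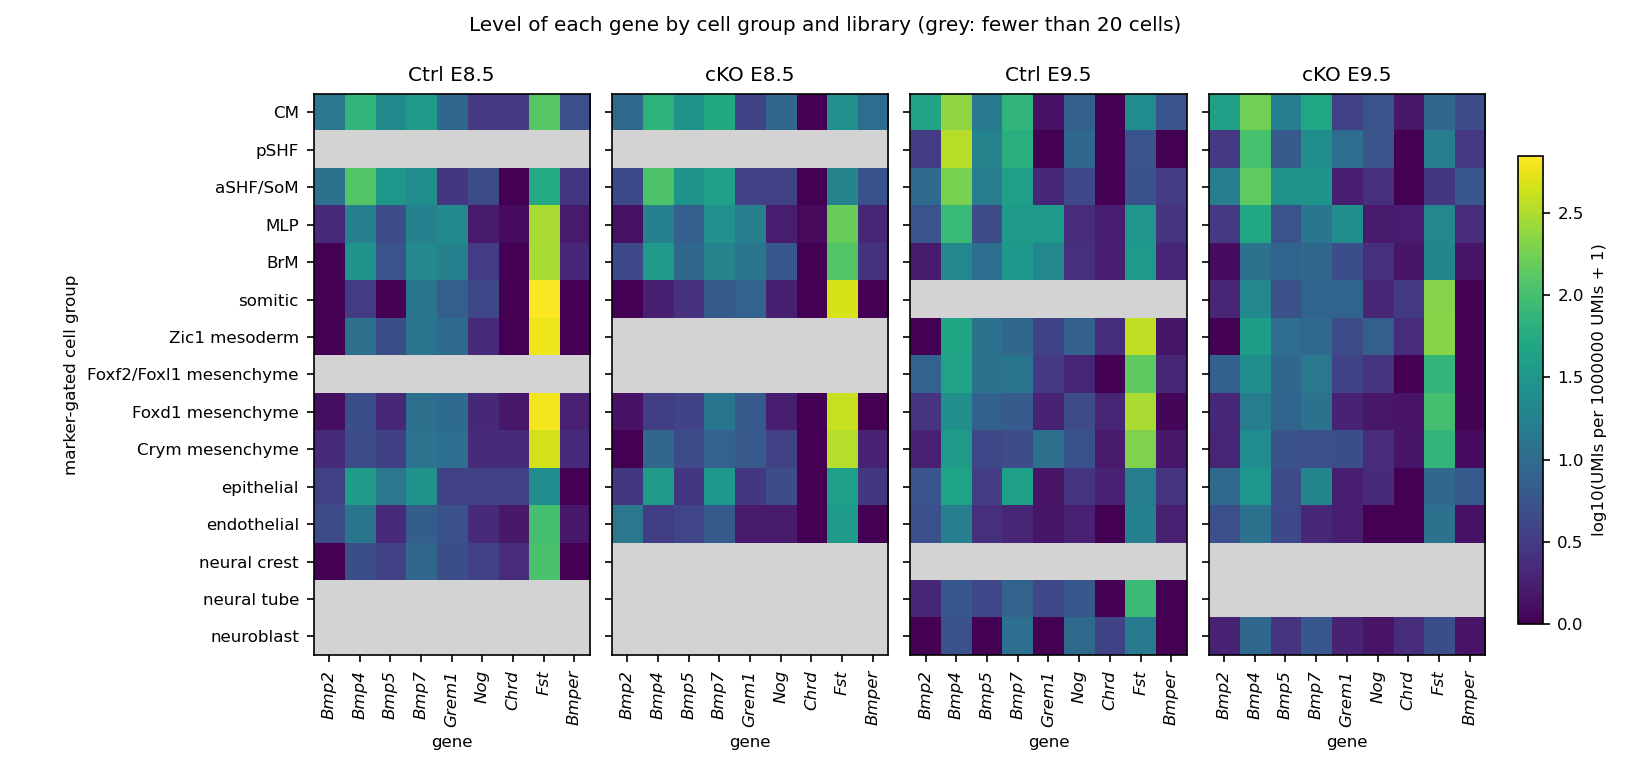
Level of the 9 genes (columns) in marker-gated cell groups (rows) of the 4 libraries, as log10(UMIs per 1000000 UMIs + 1), with grey for groups under 20 cells. In Ctrl E9.5, Bmp4 is brightest in pSHF (347 UPM) and CM (237), and Fst in Zic1 mesoderm (370) and Foxd1 mesenchyme (300.3).

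The comparison of cKO with Ctrl asks which cells gain or lose a ligand or an antagonist when Tbx1 is inactivated in its own lineage. A ratio is read against the median gene of the same comparison, and a gene is past the fold when it differs from that median at least 2-fold. Only genes with at least 20 UMIs over both libraries were counted. The genes followed here were chosen with earlier results of these data known. The paper names Bmp7 and Grem1 among the genes reduced in its mutant MLP cells, partly from these libraries. An excess over the share of all genes, here or between stages, may thus be partly built in. The counts cannot test for such an excess, and none is inferred. The median gene had a log2 ratio of 0.04 over all cells at E8.5 and of -0.26 at E9.5, and all log2 ratios below are relative to the median of their own comparison.

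At E8.5, 7 of 30 gene-by-group ratios (23.3%) were past the fold, and 5 of the 7 were Fst. In CM, 1 of 5 genes was past it (6.44% of all genes were), in endothelial cells 3 of 3 (5.12%), in BrM 1 of 4 (6.62%), in aSHF/SoM 1 of 4 (7.37%) and in MLP 1 of 5 (4.22%). None of the 3 genes with enough UMIs was past it in epithelial cells (7.95%), nor any of 4 in Foxd1 mesenchyme (4.16%), nor the 1 gene that could be counted in somitic cells (5.49%) and in Crym mesenchyme (6.51%). Over all cells, 0 of 8 genes passed (4.14%).

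At E9.5, 22 of 64 ratios (34.4%) were past the fold, among genes chosen with earlier results of these data known. In pSHF 4 of 4 genes were (9.17% of all genes), in neuroblasts the 1 gene that could be counted (12.0%), in aSHF/SoM 3 of 5 (6.82%), in Foxd1 mesenchyme 4 of 8 (7.40%), in Crym mesenchyme 3 of 7 (7.99%) and in BrM 2 of 5 (7.85%). It was 2 of 7 in epithelial cells (7.93%), 1 of 7 in MLP (8.31%), 1 of 6 in CM (6.94%) and 1 of 4 in endothelial cells (9.27%). In Zic1 mesoderm 0 of 6 (7.34%) and in Foxf2/Foxl1 mesenchyme 0 of 4 (7.68%) passed. Within the epithelial gate, 1 of 4 passed in endoderm (9.90%) and 1 of 5 in surface ectoderm (8.21%). Over all cells, 0 of 9 genes passed (12.1%). The intervals of Bmp5 in endothelial cells, Bmp4 in neuroblasts, Bmper in aSHF/SoM and Chrd in Foxd1 mesenchyme spanned the median although their values were past the fold.

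Fst was the gene that differed in most groups. Over all cells it was at 411 UPM (Ctrl) and 237 (cKO) at E8.5 and at 143 (Ctrl) and 73.4 (cKO) at E9.5, so both libraries labelled cKO were below the Ctrl library of their stage. Fst was also lower at E9.5 than at E8.5 in Ctrl, and the cKO embryos reached higher somite counts. Embryo age therefore cannot be told apart from genotype here. At E8.5 the interval of Fst lay below the median gene in 8 of 9 groups, epithelial cells being the exception with 9 and 21 UMIs. The log2 ratio was -2.28 in CM (interval -2.92 to -1.68, 130 UMIs in Ctrl and 28 in cKO), -1.62 in aSHF/SoM, -1.53 in endothelial cells, -1.33 in BrM and -1.05 in MLP (-1.17 to -0.93, 305 UPM in Ctrl and 150.3 in cKO). In 3 groups that had more Fst in Ctrl the ratio was nearer to the median, at -0.66 in Foxd1 mesenchyme, -0.54 in somitic cells and -0.46 in Crym mesenchyme.

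At E9.5 Fst was lower past the fold in Foxd1 mesenchyme, Crym mesenchyme, CM and endoderm. Foxd1 mesenchyme had 300.3 UPM of Fst in Ctrl and 102 in cKO, a log2 ratio of -1.37 (-1.44 to -1.29), and Crym mesenchyme had 199 and 73.1 UPM, a ratio of -1.25 (-1.34 to -1.15). Zic1 mesoderm, the group with the most Fst, had 370 and 216 UPM (-0.61), and MLP had 29.6 and 20.5 UPM (-0.30, interval -0.62 to 0.02). The summed level of the gate's own markers was lower in cKO E9.5 in every group measured in both libraries. It was at 1774 and 1151 UPM in Foxd1 mesenchyme, 1242 and 909 in Crym mesenchyme, 1176 and 897 in MLP, 18044.5 and 13648.5 in CM, 611 and 414 in endoderm, 1063 and 742 in aSHF/SoM and 2208 and 1897 in epithelial cells, and its part in these results was not tested. In pSHF, 4 UMIs in Ctrl stood against 22 in cKO, a log2 ratio of 1.92 (0.36 to 3.92).

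**Figure D2:**
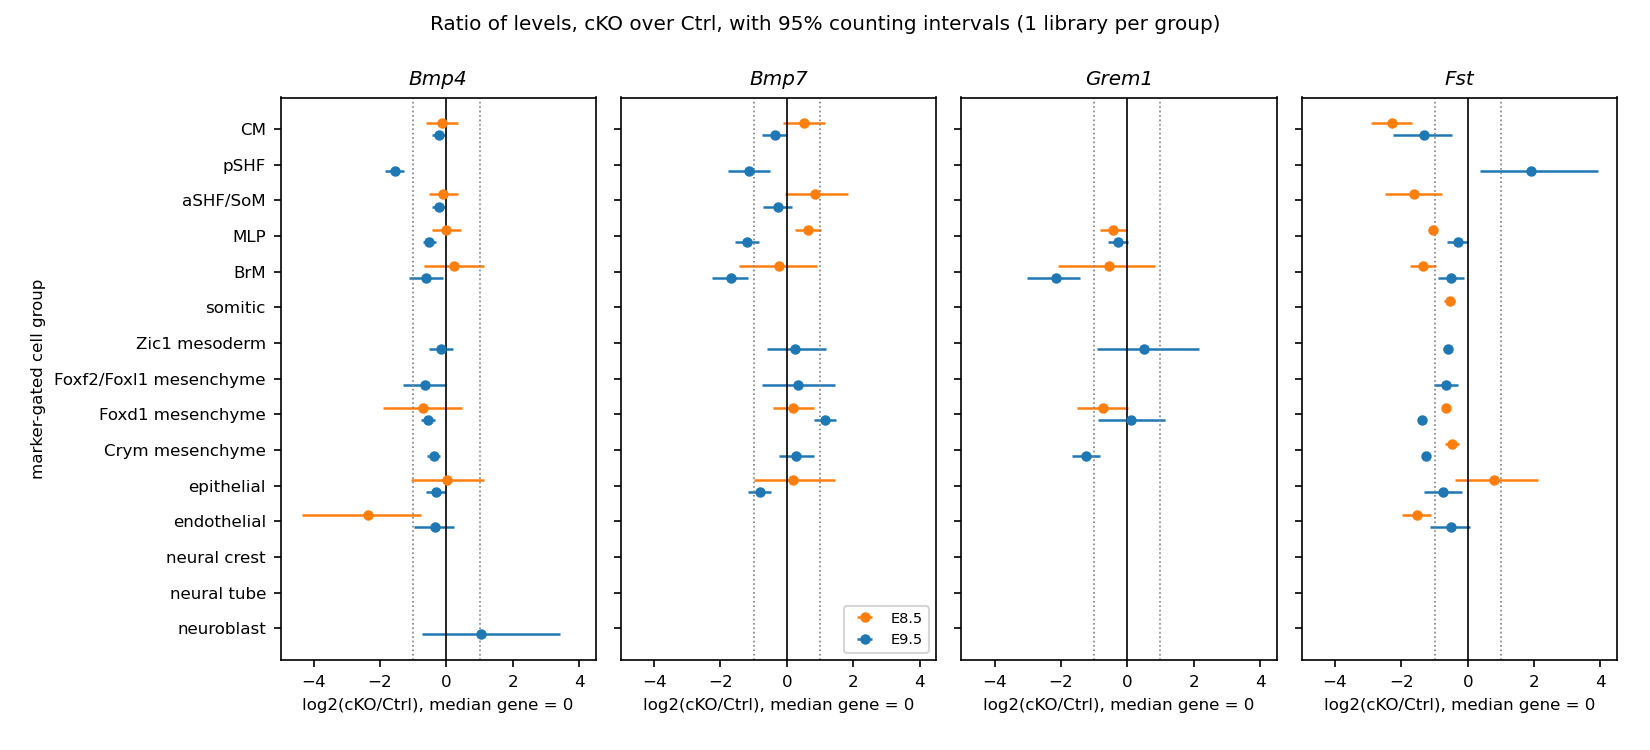
Log2 ratio of cKO over Ctrl for Bmp4, Bmp7, Grem1 and Fst (panels) in each cell group (rows), with the median gene of each comparison at 0, 95% counting intervals as bars and dotted lines at 2-fold. Fst lies below 0 in most groups at E8.5 (orange) and reaches -1.37 in Foxd1 mesenchyme at E9.5 (blue), and Bmp4 reaches -1.55 in pSHF at E9.5.

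Grem1, which was highest in MLP in the Ctrl E9.5 library, was at 12.4 UPM (Ctrl) and 7.19 (cKO) at E8.5 and at 6.42 (Ctrl) and 5.19 (cKO) at E9.5 over all cells. In BrM at E9.5 it was at 20.5 UPM in Ctrl (138 UMIs) and 3.85 in cKO (16 UMIs), a log2 ratio of -2.16 (-3.01 to -1.41), while the BrM gate's own markers summed to 870 and 617 UPM. In Crym mesenchyme it was at 10.3 and 3.81 UPM (-1.24, interval -1.66 to -0.82). In MLP, the group with the most Grem1, the ratio was -0.43 (-0.83 to -0.02) at E8.5 and -0.27 (-0.57 to 0.02) at E9.5. At E9.5 MLP cells gave 26.0% of Grem1 UMIs in Ctrl and 44.4% in cKO, while their share of cells was 4.79% and 9.02%.

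Nog, Chrd and Bmper were rare. At E9.5 Nog had 290 UMIs in Ctrl and 155 in cKO over all cells, a log2 ratio of -0.80 (-1.09 to -0.51). In Foxd1 mesenchyme 67 UMIs in Ctrl stood against 11 in cKO (-2.56, interval -3.63 to -1.63), and in Crym mesenchyme 57 stood against 25 (-1.52, -2.26 to -0.82). Both groups also had less Fst in cKO. In CM, Zic1 mesoderm and epithelial cells its interval spanned the median. Chrd had 13 UMIs (Ctrl) and 1 (cKO) at E8.5 and 64 (Ctrl) and 48 (cKO) at E9.5, too few for a group-by-group account, and in Foxd1 mesenchyme 19 stood against 9 (-1.03, -2.36 to 0.18). Bmper had 15, 28, 84 and 87 UMIs in the same order. It was higher in cKO in epithelial cells at E9.5 (25 and 22 UMIs, log2 ratio 1.83, interval 0.93 to 2.71) and, within them, in surface ectoderm (14 and 18 UMIs, 1.82, 0.73 to 2.94). The epithelial value was 1.09 without the 5 cells with the most Bmper UMIs, and that of surface ectoderm was 0.85, under the fold, after thinning to 10000 UMIs per cell.

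Among the ligands, Bmp4 had the most UMIs. Over all cells it was at 15.8 UPM (Ctrl) and 17.0 (cKO) at E8.5 and at 46.0 (Ctrl) and 32.2 (cKO) at E9.5. In pSHF at E9.5, 347 UPM in Ctrl (310 UMIs from 48 cells) stood against 103 in cKO (154 UMIs from 83 cells), a log2 ratio of -1.55 (-1.84 to -1.27). In this group the gate's own markers summed to 1173 UPM in Ctrl and 719 in cKO, the epithelial markers to 398 and 170, and the CM markers to 326 and 180, and their part in the result was not tested. Smaller differences with intervals below the median were found in BrM (-0.60), Foxd1 mesenchyme (-0.55), MLP (-0.52, 81.8 and 48.7 UPM), Crym mesenchyme (-0.39), epithelial cells (-0.32), CM (-0.23) and aSHF/SoM (-0.23). Counting pSHF, the interval lay below the median in 8 of 12 groups, and pSHF was the 1 group in which Bmp4 was lower past the fold. Within epithelial cells the gates differed in sign, with 0.59 (0.12 to 1.03) in endoderm and -0.93 (-1.46 to -0.43) in surface ectoderm. At E8.5 the interval spanned the median in 6 of 7 groups, and in endothelial cells 20 UMIs stood against 4 (-2.35, -4.36 to -0.77).

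Bmp7 was lower in cKO at E9.5 in branchial and progenitor mesoderm. In BrM it was at 31.5 UPM in Ctrl and 8.17 in cKO, a log2 ratio of -1.69 (-2.26 to -1.17) beside the lower marker sum given above for this gate, in MLP at 32.8 and 12.2 (-1.20, -1.55 to -0.85) and in pSHF at 62.7 and 24.7 (-1.14, -1.78 to -0.51). In epithelial cells, which gave 34.8% of the Bmp7 UMIs of Ctrl E9.5, it was at 39.1 and 19.3 UPM (-0.81, -1.17 to -0.47). Foxd1 mesenchyme differed in sign, with 5.60 UPM in Ctrl and 10.8 in cKO (1.15, 0.82 to 1.49). At E8.5, MLP had 16.9 UPM in Ctrl and 26.6 in cKO, a ratio of 0.63 (0.24 to 1.02), opposite in sign to the ratio in MLP at E9.5.

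Bmp2 and Bmp5 differed in either direction. Bmp2 in CM, its main source, was at 44.8 UPM in Ctrl and 40.9 in cKO at E9.5 (0.08, -0.36 to 0.51). It was higher in cKO at E9.5 in epithelial cells (4.60 and 8.42 UPM, 1.08, 0.43 to 1.70) and aSHF/SoM (8.82 and 15.4 UPM, interval 0.26 to 1.78), and lower in MLP (21 and 20 UMIs, -0.96, -1.92 to -0.01). The epithelial value of Bmp2 was 0.24 once the 5 cells with the most Bmp2 UMIs were left out of each library. In endothelial cells at E8.5, 6 UMIs of Bmp2 stood against 21 (1.78, 0.42 to 3.38). Bmp5 at E9.5 was higher in cKO in aSHF/SoM (14.8 and 27.9 UPM, 1.11, 0.56 to 1.69) and lower in pSHF (16 and 8 UMIs, -1.54, -2.97 to -0.23).

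The mixture of cells also differed between the E9.5 libraries. Epithelial cells were 13.6% of Ctrl and 3.27% of cKO, endothelial cells 7.85% and 2.35%, and Crym mesenchyme 13.9% and 18.1%. In a sum over all cells, fewer cells of a kind and less RNA per cell cannot be told apart. The all-cell ratios were therefore recomputed with each cell group of cKO weighted by its share of the UMIs in Ctrl. Groups under 20 cells in either library were left out. Ungated cells and cells set aside each counted as a group, so the mixture inside these was not held fixed. Grem1 then went from -0.05 to -0.66, Fst from -0.71 to -1.08, Bmper from 0.16 to 0.83 and Bmp2 from -0.32 to 0.24, while Bmp4 went from -0.26 to -0.35 and Bmp7 from -0.63 to -0.43. At E8.5, Fst was at -0.83 and -0.84 and Grem1 at -0.83 and -0.94 without and with this weighting.

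**Figure D3:**
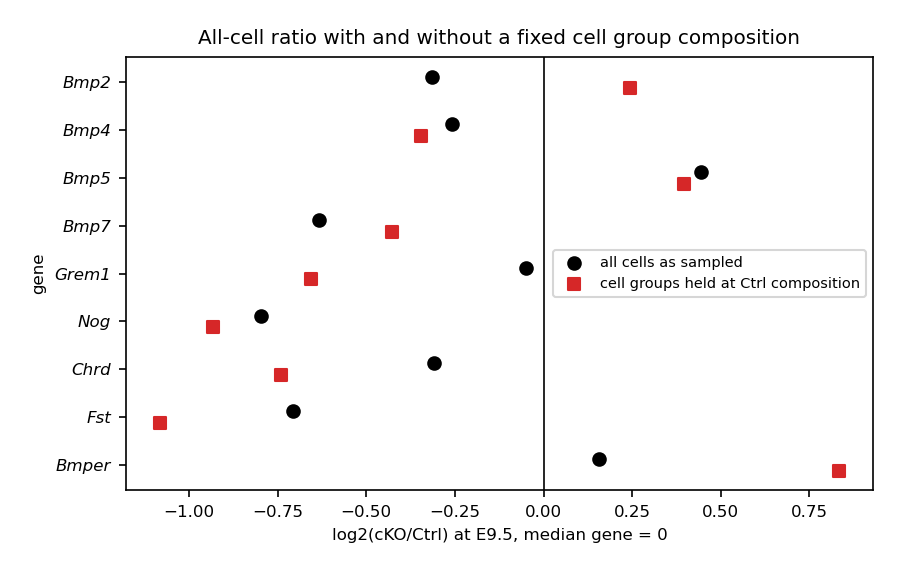
All-cell log2 ratio of cKO over Ctrl at E9.5 for the 9 genes, relative to the median gene, with the cells as sampled (circles) and with cell groups held at the Ctrl composition (squares). Grem1 moves from -0.05 to -0.66 and Bmp2 from -0.32 to 0.24, and Fst is at -0.71 and -1.08.

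Between E8.5 and E9.5 in the Ctrl libraries Bmp4 was higher at the later stage and Fst lower in most groups, although stage, dissection and library cannot be told apart. The median gene had a log2 ratio of 0.39 over all cells, and 24 of 48 gene-by-group ratios were past the fold. In Foxd1 mesenchyme 7 of 8 genes were (15.5% of all genes), in Crym mesenchyme 4 of 6 (17.0%), in CM 3 of 5 (13.5%), in MLP 3 of 6 (10.6%), in aSHF/SoM 2 of 5 (14.5%) and in Zic1 mesoderm 2 of 4 (14.9%). The counts were 1 of 5 in BrM (16.4%), 1 of 3 in endothelial cells (15.5%), 1 of 7 in epithelial cells (16.9%) and 4 of 9 over all cells (16.5%). Some values past the fold had intervals that spanned the median. In Foxd1 mesenchyme the interval lay above the median for 2 genes and below it for 3, and in Crym mesenchyme for 1 and 2. That of Nog spanned it in all 3 groups counted, 2 of them past the fold. In Foxd1 mesenchyme of Ctrl E8.5, Bmp2 rested on 1 UMI and Nog on 4.

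Fst was lower at E9.5 past the fold in 7 of 9 groups. In MLP it went from 305 to 29.6 UPM, a log2 ratio of -3.64 (-3.91 to -3.39), in BrM from 296 to 32.4 (-3.49), in aSHF/SoM from 54.4 to 4.23 (-3.92) and in Foxd1 mesenchyme from 631 to 300.3 (-1.40). Bmp4 was higher past the fold in 5 of 9 groups. In MLP it went from 16.5 to 81.8 UPM (2.03, 1.69 to 2.39), in CM from 74.1 to 237 (1.41) and in Foxd1 mesenchyme from 3.81 to 25.0 (2.39). Bmp2 in CM went from 12.8 to 44.8 UPM (1.53, 0.70 to 2.48), a ratio that was 0.83, under the fold, after thinning. Grem1 was at 21.6 and 33.9 UPM in MLP (0.37, 0.01 to 0.74) and at 8.97 and 0.92 in Foxd1 mesenchyme (-3.61, -4.52 to -2.74). Bmp7 was lower in Foxd1 (-1.21) and Crym mesenchyme (-1.84).

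**Figure D4:**
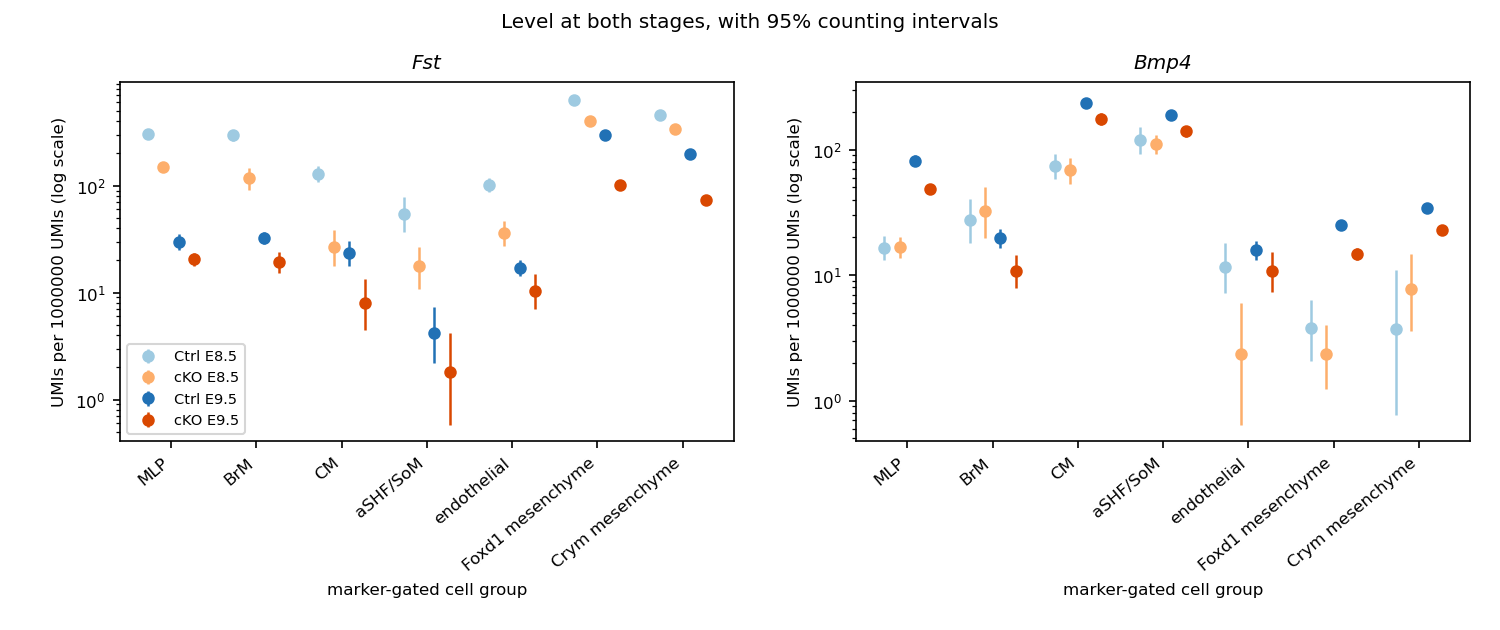
Levels of Fst and Bmp4 in 7 cell groups of the 4 libraries, in UMIs per 1000000 UMIs on a log axis, with 95% counting intervals. Fst in MLP is at 305 UPM in Ctrl E8.5 and 29.6 in Ctrl E9.5, and Bmp4 in MLP at 16.5 and 81.8.

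The share of cells with a UMI was compared after thinning each cell to 10000 UMIs, which left out shallower cells, 135 (Ctrl) and 84 (cKO) at E8.5 and 555 (Ctrl) and 718 (cKO) at E9.5. Gates were applied after thinning, so group sizes differ from those above. Fst was found in 74.9% (Ctrl) and 55.3% (cKO) of cells at E8.5 and in 42.6% (Ctrl) and 28.9% (cKO) at E9.5. In MLP at E8.5 the share was 62.1% (54.4 to 69.3) in Ctrl and 25.7% (18.8 to 33.6) in cKO, and in Foxd1 mesenchyme at E9.5 it was 78.5% (75.7 to 81.1) and 40.2% (36.9 to 43.6). Fst in epithelial cells, where it was low, gave 4.93% and 4.28% at E9.5. At E9.5 Bmp4 was found in 91.7% (80.0 to 97.7) of pSHF cells in Ctrl and in 44.6% (33.7 to 55.9) in cKO. Bmp7 was found in 26.7% and 9.68% of BrM cells and in 24.7% and 11.8% of MLP cells at E9.5, against 1.04% of endothelial cells in Ctrl. Grem1 in BrM cells was at 13.9% (10.4 to 18.2) and 3.76% (1.53 to 7.60), against 0.282% of epithelial and 0.260% of endothelial cells in Ctrl E9.5. At E9.5 Nog was found in 5.26% of Crym mesenchyme cells in Ctrl and 1.19% in cKO, against 0.260% of endothelial cells in Ctrl.

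Ligand and antagonist were next looked for in the same thinned cells. Among MLP cells of Ctrl E9.5, Grem1 was found in 13.1% (7.35 to 21.0) of the 107 cells with Bmp4 and in 31.8% (24.0 to 40.5) of the cells without. In MLP cells of cKO E9.5 the values were 20.5% (13.7 to 28.7) and 19.1% (14.4 to 24.5). Over all cells of Ctrl E8.5, Fst was found in 51.6% (42.5 to 60.6) of cells with Bmp4 and 77.4% (74.9 to 79.8) of the others, and over all cells of Ctrl E9.5 in 21.6% (18.4 to 25.0) of cells with Bmp7 and 45.6% (44.1 to 47.1) of the others. Within Foxd1 mesenchyme of Ctrl E9.5, Fst was found in 74.5% (66.3 to 81.5) of cells with Bmp4 and 79.2% (76.2 to 81.9) of those without. The difference between the Ctrl and cKO values was not tested.

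Across 22 cell groups of the 2 Ctrl libraries, which share libraries and depth, the pattern of log2(UPM + 10) of Bmp4 correlated with that of Bmp5 (Pearson r = 0.80) and Bmp7 (0.75) and with that of Fst at -0.59. Bmp2 correlated with Bmper (0.87). The genes most like Bmp4 among 12081 were Tbx2 (0.91), Dusp9 (0.90) and Myrf (0.90), those most like Bmp7 were Nkx2-5 (0.89), Fam213a (0.88) and Jag1 (0.87), and those most like Bmp2 were Vnn1 (0.92), Filip1 (0.92) and Jph2 (0.91). By rank correlation (Spearman), Vnn1, Filip1 and Jph2 were at 0.81, 0.71 and 0.70 with Bmp2, and Tbx2, Dusp9 and Myrf at 0.89, 0.90 and 0.76 with Bmp4. Nkx2-5 encodes a heart transcription factor and is a marker of the aSHF/SoM gate. Grem1 was most like Fmn1 (0.76), Tslp (0.73) and Chrdl1 (0.71), which encodes another BMP antagonist, and Fst was most like Prkrir (0.87), Lmo4 (0.85) and Gm17300 (0.81). For the rarer genes the leaders were Rbbp7 (Bmp5, 0.84), Wdr5b (Nog, 0.78), 1700056E22Rik (Chrd, 0.77) and Syne1 (Bmper, 0.89), and Chrd and Bmper rested on 77 and 99 UMIs.

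Other genes of the pathway were counted by fixed lists, also chosen with earlier results of these data known. Over all cells at E9.5, with 12.1% of all genes past the fold, none of 8 receptor genes and none of 8 SMAD and SMURF genes was past it. Of 9 other BMP and GDF ligands with enough UMIs, 2 were higher and 3 lower in cKO, each from at most 67 UMIs in a library, with Inhba, an activin subunit, at 37 UMIs in Ctrl and 6 in cKO (-2.52, -4.05 to -1.26). Of 19 other antagonists and modulators, 0 were higher and 5 lower, the lowest being Chrdl1 (5.03 and 0.78 UPM, -2.42), Sost (0.95 and 0.22 UPM, -1.86) and Sostdc1 (14.0 and 4.56 UPM, -1.36). Epithelial cells, a scarcer group in cKO, held 1202 of the 1319 Sostdc1 UMIs of Ctrl, and within them Sostdc1 was not past the fold. Endothelial cells, also scarcer in cKO, held 75 of the 90 Sost UMIs of Ctrl E9.5, and within them Sost was not lower past the fold. Of 18 target genes 1 was lower, Dlx5 (4.89 and 0.93 UPM, -2.14), which is also a marker of otic cells, and these were 57 in Ctrl and 7 in cKO. Within Crym mesenchyme Dlx5 was lower as well, with 41 UMIs in Ctrl and 2 in cKO (-4.69, -7.79 to -2.75). The part of either group in the all-cell value was not tested. The median of the target list was -0.12. At E8.5 over all cells, with 4.14% of all genes past the fold, Smoc2, a modulator, was lower (4.32 and 2.14 UPM, -1.05), and no other receptor, SMAD or SMURF gene, ligand, antagonist or modulator of these lists with enough UMIs was past it.

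In MLP at E9.5 (8.31% of all genes), 1 of 13 antagonists and modulators with enough UMIs was higher and 3 were lower in cKO. The lower ones were Chrdl1 (15.8 and 1.19 UPM, -3.50), Smoc2 (15.3 and 3.77 UPM, -1.79) and Crim1 (3.67 and 1.19 UPM, -1.40), and the higher one was Eng (1.73 and 3.18 UPM, 1.11, -0.04 to 2.44). Of 14 target genes 2 were higher and 2 lower. Id1, an inhibitor of DNA binding induced by BMPs, was at 240 UPM in Ctrl and 487 in cKO (1.25, 1.15 to 1.34), and Id4 at 1.51 and 2.98 (1.21, -0.01 to 2.64). Hand1, a heart transcription factor and a marker of the aSHF/SoM gate, was at 4.53 and 0.40 (-3.29), from 21 and 4 UMIs. Cells with Hand1 may go to that gate instead of MLP. Hey1, a Notch and BMP target, was at 66.7 and 26.9 (-1.08). Chrdl1 was lower as well in BrM (18.7 and 3.36 UPM, -2.22), Foxd1 mesenchyme (2.72 and 0.37 UPM, -2.68) and Crym mesenchyme (5.81 and 0.46 UPM, -3.47). In BrM (7.85% of all genes), Msx1 was at 40.7 UPM in Ctrl and 13.9 in cKO (-1.29), while in Foxd1 mesenchyme it was at 5.91 and 13.9 (1.44). In MLP the members of a list thus did not share 1 direction, and the lists' medians were 0.05 for the antagonists and 0.04 for the targets. In pSHF at E9.5 (9.17% of all genes), 0 of 13 target genes were higher and 5 were lower, with a median of -0.31. The lowest were Hand1 (18 and 6 UMIs, -2.13), Smad6 (22 and 9 UMIs, -1.83) and Gata4 (51 and 23 UMIs, -1.69), itself a marker of the pSHF gate. The part of the lower marker sum of this gate was not tested.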

How the data were processed

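Live GFP-positive cells were sorted from dissociated tissue and run on the 10x Genomics 3′ platform (kit v2 per the labels). The authors aligned reads to mm10 (GRCm38 in the processing notes) with Cell Ranger 3.1.0, although the headers of the E8.5 matrices name another version, and deposited filtered matrices of raw UMI counts per gene and cell, without normalization. Here the counts of genes shared by the 4 libraries were summed over the cells of each marker gate and divided by their total. Every deposited barcode was kept, with no doublet removal. Gates for cardiomyocytes, endothelial, epithelial and neural cells took precedence over the mesodermal gates, and a cell passing more than 1 of them was set aside, unless these were the epithelial and neuroblast gates (then neuroblast). Among mesodermal gates a cell went to the best match, and ties were set aside. Gate cutoffs were set after the marker genes, but not the 9 genes, had been looked at, and the marker lists come partly from the cluster markers of the study, chosen on these libraries. The 9 genes and the pathway lists were chosen with earlier results of these data known.

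Ratios carry exact conditional binomial intervals, levels exact Poisson intervals and shares exact Clopper-Pearson intervals, at 95%, and the ratio interval was tested on simulated data. No test was run, since each group has 1 library. Named genes were the 9 genes and, of each pathway list and comparison, at most the 3 highest and the 3 lowest past the fold, plus for likeness the 3 genes with the highest correlation among those with at least 100 UMIs, of which the first is given for the rarer genes. One result is not reported here. Alternatives were TMM scaling (edgeR 4.0.16 in R 4.3.3), median-of-ratios scaling, filtered barcodes (at least 1000 genes, at most 10% mitochondrial UMIs, at most 3 times the median UMIs), a gate with 1 more marker, cells passing more than 1 gate left out, thinning to 10000 UMIs, and sums without the 5 cells with the most UMIs of the gene. Weighting by the Ctrl cell composition was chosen after seeing the data. Python 3.11.15, numpy 2.4.6, scipy 1.17.1, pandas 2.3.3 and matplotlib 3.10.9 were used.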

Additional observations from a re-analysis of the deposited data

Results flagged for a closer look

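Some genes had cKO over Ctrl log2 ratios, relative to the median gene, of opposite sign in 2 cell groups or stages, with both intervals clear of the median. Each rests on 1 library per group, and none of these differences was tested. Bmp2 at E9.5 was at 1.08 in epithelial cells and at -0.96 in MLP. Bmp5 at E9.5 was at 1.11 in aSHF/SoM and at -1.54 in pSHF. Bmp7 in MLP was at -1.20 at E9.5 and at 0.63 at E8.5. Bmp7 at E9.5 was at 1.15 in Foxd1 mesenchyme and at -1.69 in BrM. Fst at E9.5 was at 1.92 in pSHF, from 4 and 22 UMIs, and at -1.37 in Foxd1 mesenchyme.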

How the results depend on the processing

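No paired analysis was possible because each group has 1 library, and for the same reason no library could be left out of a comparison. Holding cell groups at the Ctrl composition, an alternative chosen after seeing the data, gave all-cell log2 ratios at E9.5 of 0.24 for Bmp2, -0.35 for Bmp4, -0.43 for Bmp7, -0.66 for Grem1, -1.08 for Fst and 0.83 for Bmper. Thinning to 10000 UMIs gave -0.77 for Fst over all cells at E9.5 and -0.27 for Bmp7 between stages (main value -0.01), and left 14 instead of 24 gene-by-group ratios past the fold between stages, out of 28 instead of 48. A gate with 1 more marker left 4 instead of 7 at E8.5, out of 19 instead of 30. With a fold of 1.5, 13.0% of all genes were past it at E8.5 (main value 4.14%) and 25.2% at E9.5 (main value 12.1%), and 8 and 19 pathway genes were (main values 2 and 11). At E8.5 a minimum of 50 UMIs gave 2.40% and no minimum 9.33%.

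Over 6 alternatives each, the E9.5 ratio of Fst in Foxd1 mesenchyme ran from -1.63 to -1.36, that of Bmp4 in pSHF from -1.55 to -1.46, that of Grem1 in BrM from -2.81 to -1.97, that of Bmp7 in BrM from -1.94 to -1.37 and that of Nog in Foxd1 mesenchyme from -3.10 to -1.36. The ratio of Bmp7 in MLP at E9.5 came to lie on the fold threshold itself after thinning. Bmp2 in epithelial cells ran from 0.24 to 1.10 and Fst in CM at E9.5 from -1.34 to -0.36. At E8.5 Fst ran from -1.64 to -0.99 in MLP, from -2.39 to -1.33 in BrM and from -3.80 to -1.61 in aSHF/SoM. Bmp2 in aSHF/SoM at E9.5 ran from 0.91 to 1.36 and was past the fold in 3 of 6 alternatives. Bmp2 in endothelial cells at E8.5 was 3.45 after thinning. The causes were not tested. Nog, Chrd and Bmper are limited by depth.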

Other observations

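The UMIs of the rarer genes came mostly 1 to a cell, and a few cells carried much of some of them. In Ctrl E8.5, 36 UMIs of Bmp2 lay in 28 cells, 1 of which held 8, and the 5 richest cells held 36.1% of them. In Ctrl E9.5 the 5 richest cells held 8.92% of Bmp2 UMIs, 2.65% of Bmp4 UMIs and 1.30% of Fst UMIs. In the same library, 61 of 62 cells with Chrd and 220 of 251 cells with Nog held 1 UMI of it. Fst reached 62 UMIs in a cell of Ctrl E8.5 and 36 in a cell of cKO E9.5.

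Ungated cells gave 31.5% of the Grem1 UMIs of Ctrl E8.5 and 8.6% of those of cKO E8.5, where they were 36.1% and 23.3% of the cells.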
